A study of Mus musculus with 6 samples.

Results

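Integrins are the receptors by which cells hold on to the extracellular matrix, and focal adhesions are the protein plaques that tie them to actin filaments inside the cell. The genes described here are 39 members of that system, taken by symbol from a list drawn up with earlier results of these data known: 17 integrin subunits (12 alpha and 5 beta) and 22 genes of the adhesion plaque and the contractile cytoskeleton. All 39 were found as single rows among the 22989 rows of the deposited gene tables. Their levels were read in 3 RNA sequencing libraries of polyadenylated RNA from the C2C12 line of mouse myoblasts (strain label C3H), in a series of 6 samples whose chromatin samples are not analysed here. The control library came from non-starved myoblasts given the siRNA labelled siNS. The starved library came from siNS myoblasts kept for 4 h in a buffered salt solution (HBSS with HEPES and antibiotics) in place of the serum-containing growth medium. The knockdown library came from non-starved myoblasts given siRNA against Foxk1, a forkhead transcription factor. Each group had 1 library, both comparisons used the same control library, and whether a library pools several cultures is not given in the sources used here. By the design text, the starved and the Foxk1-depleted cells were each to be profiled relative to a non-starved control.

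As background, an integrin is a pair of 1 alpha and 1 beta chain, and the pair decides which matrix protein is bound. Talin and kindlin bind the beta tail, vinculin, filamin and alpha-actinin join it to actin, and paxillin, focal adhesion kinase and integrin-linked kinase pass signals on. Many genes of the actin cytoskeleton are transcribed by serum response factor (SRF) with its coactivators of the MRTF family, which enter the nucleus when actin assembles, and SRF binds a DNA element called the CArG box. In myoblasts integrins serve spreading, migration and fusion, and the laminin receptor with the alpha7 chain anchors muscle fibres.

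Values are FPKM, a fragment count scaled to transcript length and library size, each with the 95% interval that the authors deposited. Because of the scaling to length, levels were set side by side between genes. Other sources of difference in FPKM between genes were not examined. Read depth is unknown, and intervals of single-gene rows from 5 FPKM upward reached a median of 17.6% (control), 19.4% (starved) and 19.3% (knockdown) to each side of the value. With 1 library per group no spread between replicates could be measured and no test or p-value can be given. Intervals are called apart when they share no value. Such a call sets 2 libraries side by side and says nothing of how the conditions would vary. The targeted transcript, Foxk1, was at 9.09 FPKM (7.76 to 10.4) in control cells, 16.1 FPKM (13.3 to 18.9) in starved cells and 5.15 FPKM (4.29 to 6.02) in knockdown cells. Of 7 myoblast markers, 6 were at 1 FPKM or more in every library, with summed levels of 790.1, 704 and 812 FPKM in control, starved and knockdown cells, while Mstn did not exceed 0.0171 FPKM. Most of the sum was desmin (Des, 485, 403 and 520.0 FPKM), and the myogenic factors differed in the starved library: Myod1 was at 70.1, 10.7 and 95.8 FPKM in the same order, lower apart there, and Myf5 at 16.8, 29.6 and 17.5 FPKM, higher apart there. The part of this in the members' values was not tested. None of 5 endothelial markers reached 1 FPKM, and the 6 epithelial markers summed to 2.94, 2.08 and 2.86 FPKM in the same order. The RNA was bulk RNA, so fewer cells of a type and less RNA per cell cannot be told apart in any value here.

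Most of the differences among the 39 genes ran downward in the starved library and upward in the Foxk1 knockdown library. In the starved library 13 of the 39 were lower than the control with intervals apart and 4 were higher. Among all 11091 single-gene rows that reached 1 FPKM in either library, 11% were lower apart and 12.3% higher apart. The 10 integrins that reached 1 FPKM there split evenly, with 2 lower apart and 2 higher apart. Of the 22 other members, 11 were lower apart and 2 higher apart. The median log2 fold change, taken as log2((FPKM + 1)/(control FPKM + 1)), was -0.29 over all 39 genes and -0.41 over the 32 that reached 1 FPKM in that comparison, against -0.01 over all rows. By size, 3 members (Tns3, Cnn2 and Vasp) were at least 2-fold lower and 0 at least 2-fold higher, where 2.93% and 3.12% of all rows were. In the knockdown library 14 of the 39 were higher apart and 2 lower apart, beside 9.03% and 7.22% of the 11048 rows compared. Itga11 and Itga4 reached 1 FPKM only in the knockdown library, which alone makes them higher there. Without them 12 of 32 were higher apart. The median log2 fold change was 0.26 over all 39 genes, against 0.02 over all rows. At least 2-fold higher were 5 members (Tagln, Itga11, Itgb5, Itgb3 and Myl9) and at least 2-fold lower was 1, Itgb7, beside 2.55% and 1.42% of all rows.

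**Figure D1:**
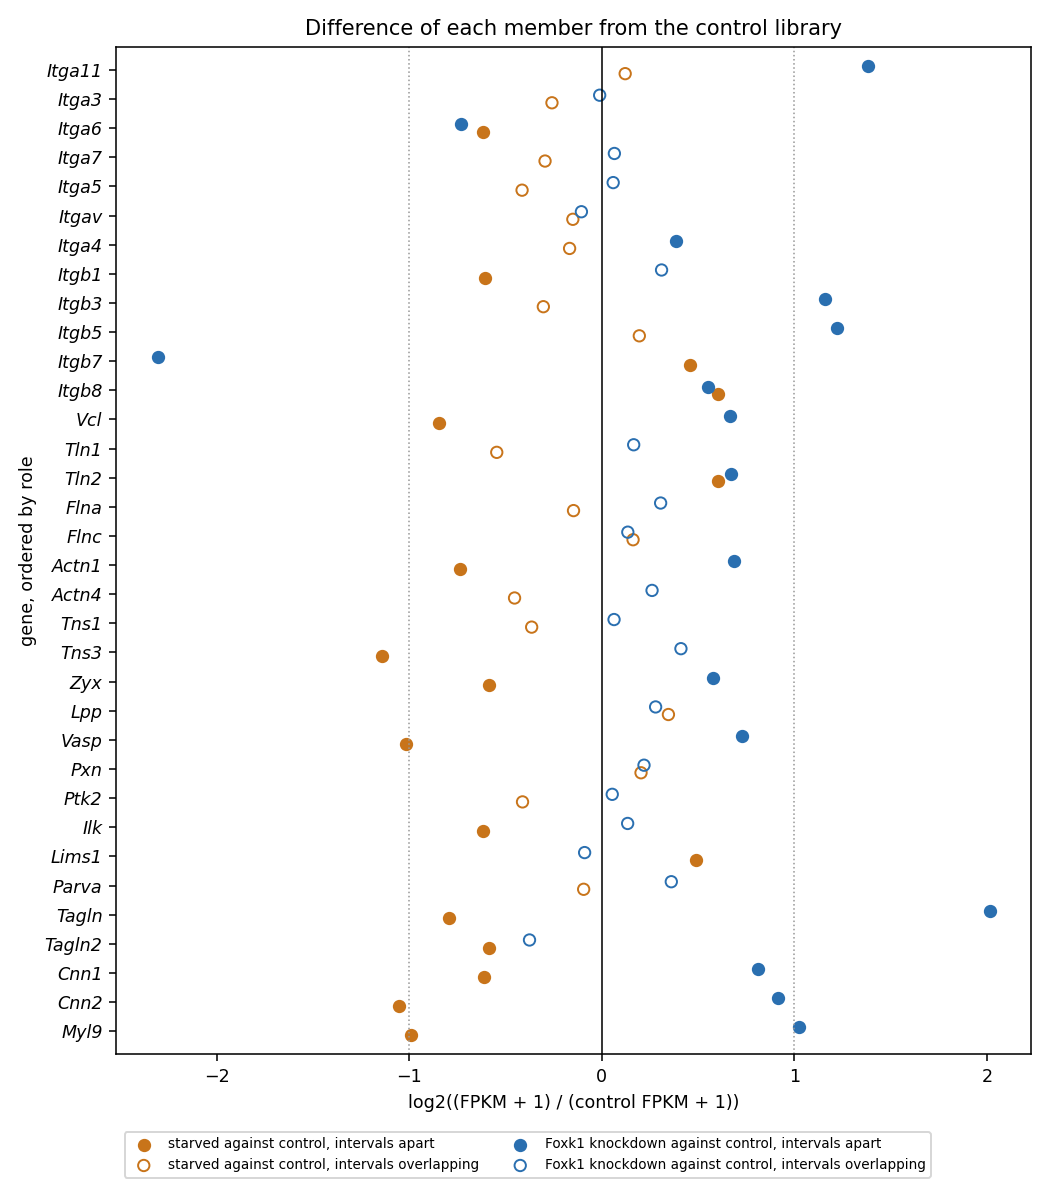
Log2 fold change of each of the 34 members that reached 1 FPKM in any library, in the starved library (orange) and the Foxk1 knockdown library (blue) against the same control library, on the log2(FPKM + 1) scale. Filled points have intervals apart, open points have overlapping intervals, and dotted lines mark 2-fold. The 5 contractile genes at the bottom all lie left of 0 in orange, and Tagln at 2.01 and Itgb7 at -2.31 are the ends of the blue points.

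The control myoblasts expressed a limited set of integrins. The 5 alpha chains well above 1 FPKM were the laminin receptor chains Itga7 (117 FPKM), Itga3 (43.5) and Itga6 (27.2), the fibronectin receptor chain Itga5 (67.7) and Itgav (37.3), a chain that binds RGD sequences in vitronectin and fibronectin. Itga7 alone made up 39.7% of the summed alpha FPKM and Itga5 23.0%. Of the beta chains, Itgb1, the common partner of most alpha chains, stood at 238 FPKM and made up 79.5% of the summed beta FPKM, followed by Itgb5 with 11.9% and Itgb3 with 4.94%. Of the 39 members, 5 stayed under 1 FPKM in all 3 libraries: Itga1, Itga2, Itga8, Itga9 and Itga10. Itga2 and Itga8 were listed at 0 in the control, and of these 5 genes Itga10 had the highest value, 0.409 FPKM in the starved library. Summed over all members of each kind, alpha and beta chains were nearly equal in the control, at 294 and 299 FPKM.

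Among all members, Tagln2 (713 FPKM) and Zyx (568) had the highest control levels, with intervals that overlapped each other, and Zyx stood apart from Flna (296), the next below. From Flna down to Pxn (23.4) each gene's interval overlapped that of the next. Below Pxn came Itgb3 (14.8), apart from both neighbours, then Itgb7 (9.49) and Tln2 (8.99), which overlapped, then Cnn1 (3.05) and Itgb8 (1.29).

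**Figure D2:**
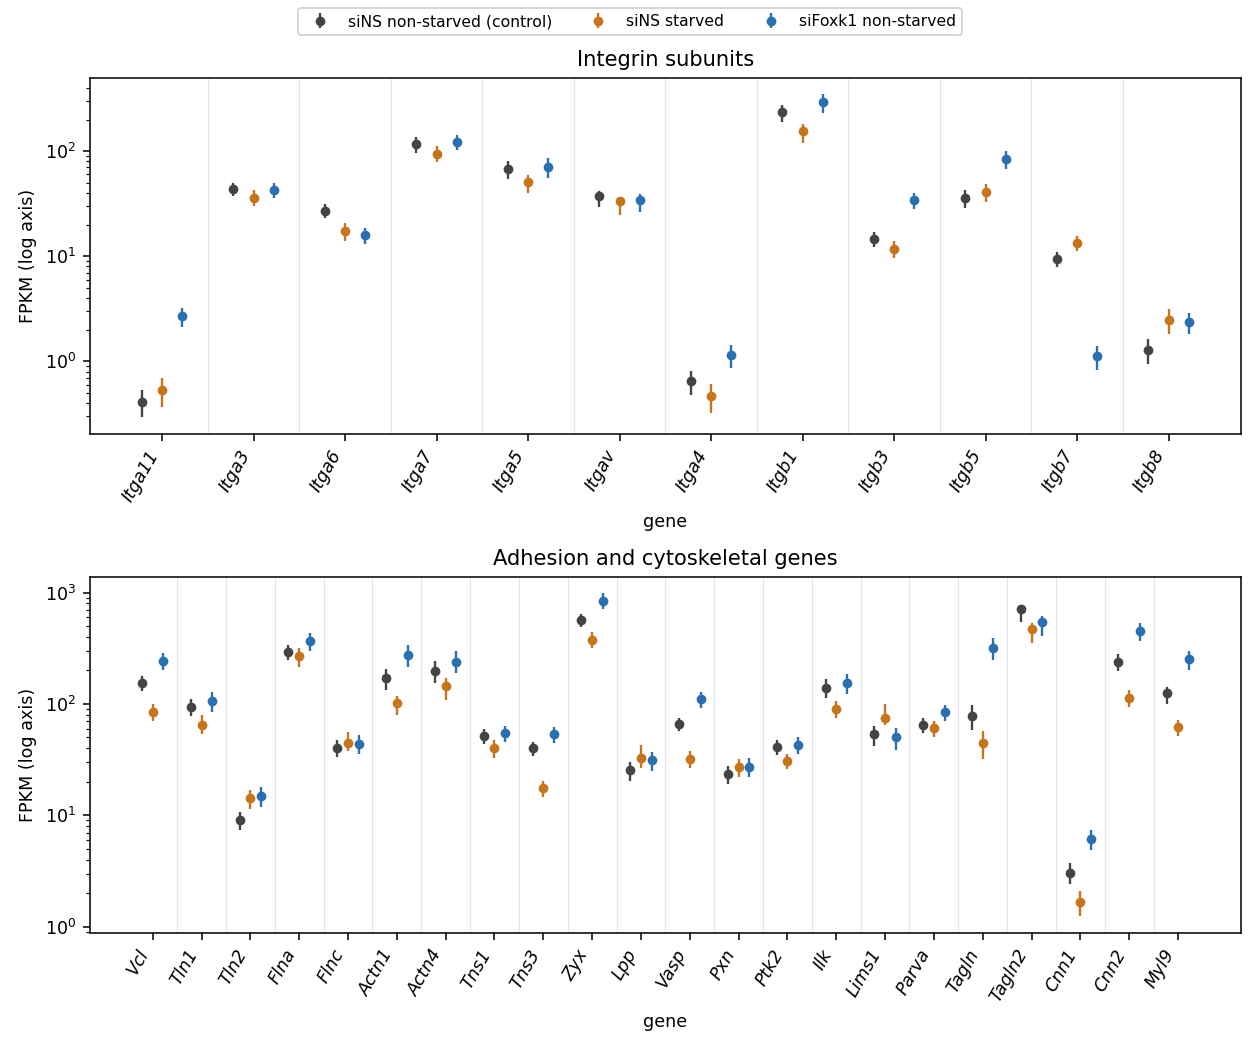
FPKM on a log axis with the deposited 95% intervals (bars) for the 12 integrin subunits (top) and the 22 adhesion and cytoskeletal genes (bottom) that reached 1 FPKM in any library. Grey is the control, orange the starved and blue the Foxk1 knockdown library, with 1 library each. Itgb7 is the integrin that stands lowest in blue relative to grey, at 1.12 against 9.49 FPKM.

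Of the 5 abundant alpha chains, 4 had intervals that overlapped the control in both comparisons. Most rows overlapped too, 8500 of 11091 in the starved and 9252 of 11048 in the knockdown comparison. Itga7 was at 117 FPKM (96.7 to 137) in control cells, 94.9 FPKM (78.4 to 111) in starved cells and 122 FPKM (103 to 141) in knockdown cells. Itga3 was at 43.5 FPKM (37.2 to 49.8) in control cells, 36.2 FPKM (29.8 to 42.6) in starved cells and 43.2 FPKM (36.2 to 50.1) in knockdown cells. Itga5 was at 67.7, 50.6 and 70.6 FPKM and Itgav at 37.3, 33.5 and 34.6 FPKM, always in the order control, starved, knockdown. With overlapping intervals a difference was not detectable here, which does not show equal levels. Itga6, which forms laminin receptors with Itgb1 or Itgb4, was at 27.2 FPKM (22.9 to 31.4) in control cells, 17.3 FPKM (14.0 to 20.7) in starved cells and 16.0 FPKM (13.2 to 18.8) in knockdown cells. It was the only alpha chain above 5 FPKM whose interval was apart from the control, and it was lower in both libraries, at 0.638 and 0.589 times the control. The ratio of Itga7 to Itga6, which like Itga3 are laminin receptor chains, was 4.30 in control, 5.48 in starved and 7.64 in knockdown cells.

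Among the weakly expressed alpha chains, Itga11, a collagen receptor chain of mesenchymal cells, was at 0.412 FPKM (0.294 to 0.530) in control cells, 0.537 FPKM (0.369 to 0.703) in starved cells and 2.68 FPKM (2.15 to 3.22) in knockdown cells. The control and starved values lay under 1 FPKM with overlapping intervals, and the knockdown value was 6.50 times the control. Itga4, a receptor chain for VCAM1 and fibronectin, was at 0.649 FPKM (0.478 to 0.816) in control cells, 0.469 FPKM (0.321 to 0.614) in starved cells and 1.15 FPKM (0.870 to 1.43) in knockdown cells. Its knockdown interval also lay above the control interval. For the other collagen receptor chains no such difference was seen: Itga1 was at 0.0939, 0.262 and 0.208 FPKM and Itga10 at 0.329, 0.409 and 0.247 FPKM, with all intervals overlapping the control, and Itga2 stayed at or near 0.

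The beta chains differed more, and in different directions. Itgb1 was at 238 FPKM (189.8 to 273) in control cells, 156 FPKM (120.0 to 179.8) in starved cells and 295 FPKM (231 to 348) in knockdown cells. It was lowest in the starved library, at 0.656 times the control with intervals apart (overlapping when libraries were scaled to the same FPKM sum), while the knockdown interval overlapped the control. Itgb3, which with Itgav binds vitronectin, was at 14.8 FPKM (12.4 to 17.1) in control cells, 11.8 FPKM (9.66 to 13.9) in starved cells and 34.2 FPKM (28.3 to 40.0) in knockdown cells. Itgb5, another partner of Itgav, was at 35.6 FPKM (28.7 to 42.5) in control cells, 40.9 FPKM (33.1 to 48.2) in starved cells and 84.4 FPKM (67.7 to 101) in knockdown cells. Both stood high in the knockdown library, at 2.32 and 2.37 times the control, and in the starved library their intervals overlapped the control. Their alpha partner Itgav had overlapping intervals throughout. Itgb8, a further partner of Itgav that engages latent TGF-beta, was weakly expressed at 1.29 FPKM (0.945 to 1.64) in control cells, 2.49 FPKM (1.83 to 3.17) in starved cells and 2.36 FPKM (1.83 to 2.89) in knockdown cells. It was higher than the control with intervals apart in both libraries.

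Itgb7 had the largest difference of any member on the log2(FPKM + 1) scale. The gene encodes the beta chain that lymphocytes pair with alpha4 or alphaE, and it was at 9.49 FPKM (7.99 to 11.0) in control cells, 13.4 FPKM (11.2 to 15.6) in starved cells and 1.12 FPKM (0.826 to 1.42) in knockdown cells. The knockdown value was 0.118 times the control, a log2 fold change of -2.31 that shrank to -1.24 with a pseudocount of 5 FPKM, where Tagln at 1.96 was the member farthest from 0. The starved value was 1.42 times the control, with intervals apart in both comparisons. Its partner Itga4 was at 0.649, 0.469 and 1.15 FPKM and the partner Itgae at 0.0648, 0.0806 and 0.0365 FPKM in the same order. The 9 leukocyte markers summed to 3.08 FPKM in control, 5.26 FPKM in starved and 1.62 FPKM in knockdown cells, most of it Cd68 (2.50, 4.10 and 1.26 FPKM). Only Cd68 reached 1 FPKM, the T cell marker Cd3e was at 0 in all 3 libraries, and Ptprc, the common leukocyte antigen, did not exceed 0.0334 FPKM. The part of these cells' RNA in the Itgb7 values was not tested.

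Taken as pools, the alpha chains summed to 294 FPKM in control, 234 FPKM in starved and 291 FPKM in knockdown cells. The beta chains summed to 299, 224 and 417 FPKM. Alpha over beta was therefore 0.983 in control, 1.04 in starved and 0.697 in knockdown cells. The share of Itgb1 in the beta pool was 79.5% in control, 69.4% in starved and 70.7% in knockdown cells, and that of Itgb5 was 11.9%, 18.2% and 20.2%. The sums carry no interval, because the authors' intervals are given gene by gene.

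**Figure D3:**
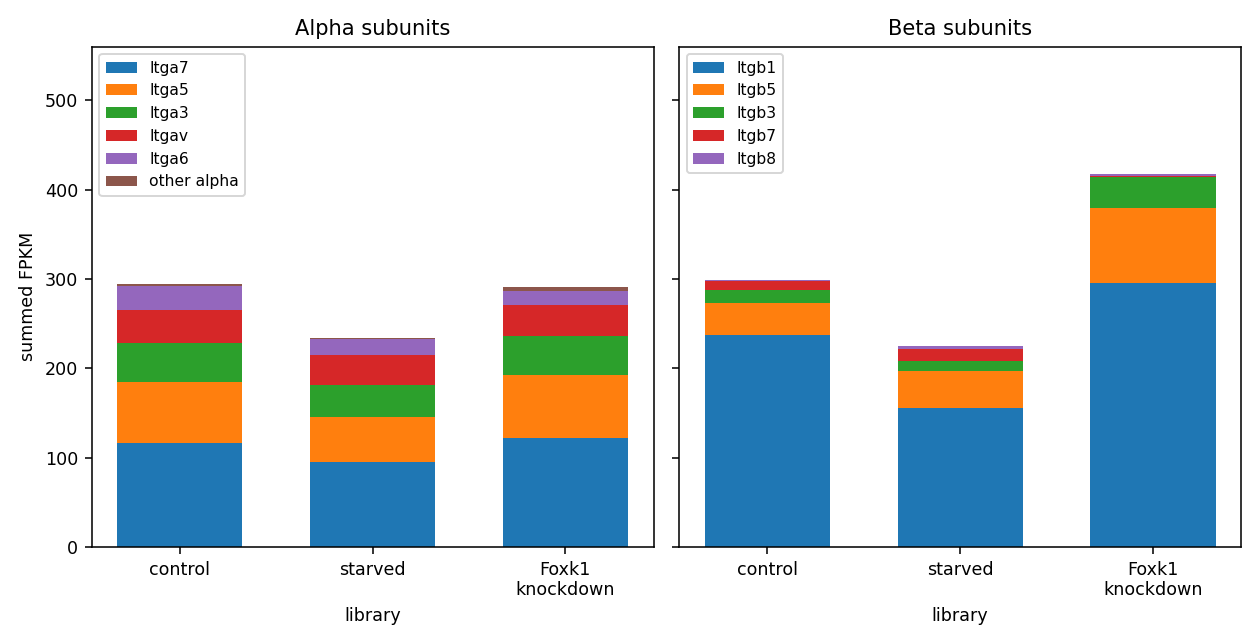
Summed FPKM of the 12 alpha and the 5 beta integrin members in each library, stacked by gene. The alpha stack is 294, 234 and 291 FPKM and the beta stack 299, 224 and 417 FPKM from left to right, and the orange and green beta segments (Itgb5 and Itgb3) are widest in the knockdown library.

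Of the 9 plaque genes that join integrins to actin, 3 (33.3%) were lower apart and 1 (11.1%) higher apart in the starved library. Of all rows, 11% were lower apart and 12.3% higher apart there. In the knockdown library 3 (33.3%) were higher apart and 0 lower apart, beside 9.03% and 7.22% of all rows. Vcl, Actn1 and Tln2 were apart in both comparisons, and Tns3 in the starved one alone. Vcl encodes vinculin, which reinforces the link between talin and actin, and was at 154 FPKM (130.0 to 178) in control cells, 85.2 FPKM (70.8 to 99.6) in starved cells and 245 FPKM (203 to 287) in knockdown cells. Actn1, an alpha-actinin that bundles actin filaments, was at 170.1 FPKM (134 to 206) in control cells, 102 FPKM (79.1 to 117) in starved cells and 274 FPKM (214 to 338) in knockdown cells. For both genes the starved interval lay below and the knockdown interval above the control interval, with starved ratios of 0.554 and 0.599 and knockdown ratios of 1.59 and 1.61. The related Actn4 was at 198, 145 and 238 FPKM, the same order of libraries, with intervals overlapping the control.

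The talin genes, whose products bind the beta tail and switch integrins on, did not run in parallel. Tln1 was at 94.6 FPKM (78.1 to 111) in control cells, 64.5 FPKM (53.6 to 80.1) in starved cells and 106 FPKM (85.2 to 127) in knockdown cells, and both intervals overlapped the control. Tln2, the talin typical of striated muscle and brain, was at 8.99 FPKM (7.37 to 10.6) in control cells, 14.2 FPKM (11.5 to 16.8) in starved cells and 14.9 FPKM (11.9 to 18.0) in knockdown cells. It was higher apart in both libraries, so that the ratio of Tln1 to Tln2 was 10.5 in control, 4.56 in starved and 7.13 in knockdown cells. The filamins, which cross-link actin, had overlapping intervals in both comparisons: Flna was at 296, 267 and 366 FPKM and the muscle filamin Flnc at 40.0, 44.9 and 44.0 FPKM.

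Tensins bind beta tails in mature, fibrillar adhesions. Tns3 was at 40.0 FPKM (34.4 to 45.5) in control cells, 17.6 FPKM (14.6 to 20.5) in starved cells and 53.5 FPKM (45.1 to 61.8) in knockdown cells. It was 0.439 times the control in the starved library, the lowest log2 fold change of any member there (-1.14), and its knockdown interval overlapped the control. Tns1 was at 52.1, 40.2 and 54.5 FPKM, and its intervals overlapped. The ratio of Tns1 to Tns3 was 1.30 in control, 2.29 in starved and 1.02 in knockdown cells.

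Of the proteins found where adhesions meet growing actin bundles, Zyx and Vasp differed in both libraries. Zyx, which encodes the LIM protein zyxin, was at 568 FPKM (488 to 647) in control cells, 378 FPKM (317 to 439) in starved cells and 848 FPKM (709.9 to 987) in knockdown cells. Vasp, which encodes an actin-elongating protein that zyxin recruits, was at 66.1 FPKM (56.8 to 75.2) in control cells, 32.1 FPKM (26.6 to 37.6) in starved cells and 110.1 FPKM (92.7 to 127) in knockdown cells. Both were lower apart in the starved library, at 0.666 and 0.486 times the control, and higher apart in the knockdown library, at 1.49 and 1.67 times. The zyxin relative Lpp was at 25.6, 32.9 and 31.3 FPKM and the adaptor gene Pxn, which encodes paxillin, at 23.4, 27.1 and 27.4 FPKM, all with intervals overlapping the control.

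In the kinase complexes of the adhesion, Ilk and Lims1 alone had intervals apart, and in the starved library only. Ilk, which encodes integrin-linked kinase, was at 139.8 FPKM (114 to 166) in control cells, 90.9 FPKM (74.4 to 107) in starved cells and 154 FPKM (122 to 185) in knockdown cells. The starved value was 0.650 times the control with intervals apart, which overlapped when libraries were scaled to the same FPKM sum. Lims1 encodes PINCH1, the LIM partner of that kinase, and was at 53.3 FPKM (42.0 to 63.0) in control cells, 75.3 FPKM (64.6 to 100.5) in starved cells and 50.0 FPKM (38.8 to 60.7) in knockdown cells. It stood higher in the starved library, at 1.41 times the control with intervals apart, opposite to Ilk. Parva, the parvin of the same complex, was at 65.1, 60.9 and 83.9 FPKM with overlapping intervals, and its starved log2 fold change of -0.09 turned above 0 on scaling to the same FPKM sum. Ptk2, which encodes focal adhesion kinase, was at 41.0, 30.6 and 42.7 FPKM, also with overlapping intervals.

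All 5 genes of the contractile cytoskeleton were lower apart in the starved library, where 11% of all rows were. In the knockdown library 4 of them were higher apart, beside 9.03% of all rows. Tagln encodes transgelin (SM22), an actin-binding protein of the calponin family, and was at 78.3 FPKM (58.1 to 98.5) in control cells, 44.8 FPKM (32.2 to 57.3) in starved cells and 319 FPKM (249 to 390.1) in knockdown cells. Its knockdown value was 4.08 times the control, the highest of any member on the log2(FPKM + 1) scale (2.01). With a pseudocount of 0.1 FPKM the weakly expressed Itga11 stood above it, at 2.44 against 2.03. Its starved ratio was 0.572, with intervals that overlapped on scaling to the same FPKM sum. Myl9, the regulatory light chain of smooth muscle and non-muscle myosin, was at 124 FPKM (99.4 to 143) in control cells, 62.0 FPKM (51.6 to 72.4) in starved cells and 254 FPKM (200.1 to 298) in knockdown cells. Cnn2, a calponin of non-muscle cells, was at 238 FPKM (197 to 278) in control cells, 114 FPKM (94.3 to 134) in starved cells and 449 FPKM (364 to 534) in knockdown cells. Cnn1, the smooth muscle calponin, was at 3.05 FPKM (2.40 to 3.70) in control cells, 1.65 FPKM (1.24 to 2.08) in starved cells and 6.11 FPKM (4.91 to 7.31) in knockdown cells. For Myl9, Cnn2 and Cnn1 the starved values were 0.499, 0.480 and 0.541 times and the knockdown values 2.04, 1.89 and 2.00 times the control.

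Tagln2, a widely expressed relative of Tagln, was the exception in the knockdown library. It was at 713 FPKM (542 to 779.6) in control cells, 474 FPKM (355 to 532) in starved cells and 549 FPKM (411 to 616) in knockdown cells. The starved value was 0.665 times the control with intervals apart, overlapping on scaling to the same FPKM sum, and the knockdown interval overlapped the control. The ratio of Tagln to Tagln2 was 0.11 in control, 0.0945 in starved and 0.581 in knockdown cells, a shift of 2.40 on the log2 scale in the last. The ratio of Cnn1 to Cnn2 was 0.0128, 0.0145 and 0.0136, shifts of 0.17 and 0.08, so both calponins differed from the control by nearly the same factor.

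**Figure D4:**
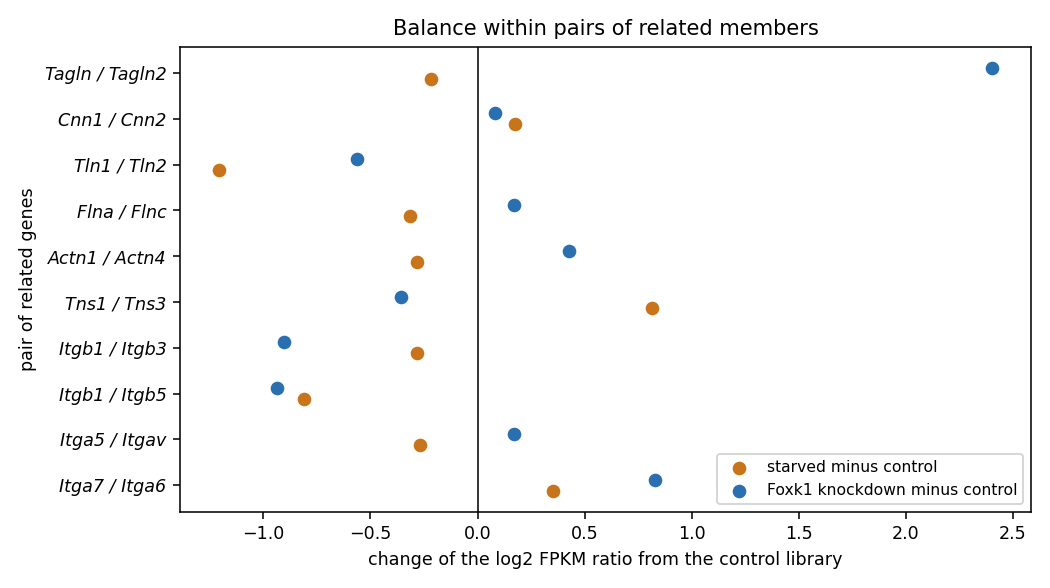
Change of the log2 ratio of FPKM within 10 pairs of related members, in the starved library (orange) and the Foxk1 knockdown library (blue), each minus the control library. A point left of 0 means that the first gene of the pair lost ground to the second. Tagln over Tagln2 has the largest shift, 2.40 in blue, and Tln1 over Tln2 the lowest, -1.21 in orange.

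Smooth muscle cells also express Tagln, Cnn1 and Myl9, so markers of that cell type were read in the same libraries. The 4 markers summed to 45.3 FPKM in control, 34.7 FPKM in starved and 43.0 FPKM in knockdown cells, nearly all of it Smtn, which encodes smoothelin (44.5, 33.6 and 40.6 FPKM, intervals overlapping the control). Myh11, the smooth muscle myosin heavy chain, did not exceed 0.0144 FPKM, and Myocd, the smooth muscle coactivator of SRF, was at 0.294, 0.410 and 0.0833 FPKM, lower apart in the knockdown library. Lmod1, a leiomodin, was at 0.474, 0.650 and 2.33 FPKM and was higher apart in the knockdown library.

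Promoter sequence was examined for the CArG box because many of the cytoskeletal members are textbook targets of SRF. The window ran from 250 bases before to 50 bases after the annotated start in RefSeq on GRCm38.p6. That build differs from the mm9 named in the submitters' processing notes. Of the 39 members, 31 had at least 1 window, 37 in all. The rest had no window and were not searched. A member not named as holding a box therefore had either no match or no window. An exact CArG box (CC, 6 bases of A or T, GG, a pattern whose reverse complement is the same pattern, so both strands were covered) stood in 3 of the 37 windows (8.11%), those of Myl9, Cnn2 and Vcl, and in 1.63% of all 32851 windows in the table. Members that were lower apart in the starved and higher apart in the knockdown library numbered 8 in all. The share of all rows with that pattern was not counted, and whether a CArG box goes with it was not tested. Myl9, Cnn2 and Vcl were among the 8. Their sequences from 250 bases before the start up to the start are shown 5′ to 3′ on the plus strand, with the CArG box in capitals, beginning 161, 56 and 227 bases before the start in turn.
Myl9, chr2:156775214-156775463: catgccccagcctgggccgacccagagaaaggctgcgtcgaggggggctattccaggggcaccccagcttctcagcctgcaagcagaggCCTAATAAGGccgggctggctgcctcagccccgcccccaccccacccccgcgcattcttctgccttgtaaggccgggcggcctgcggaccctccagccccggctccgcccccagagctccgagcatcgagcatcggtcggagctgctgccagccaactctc
Cnn2, chr10:79988350-79988599: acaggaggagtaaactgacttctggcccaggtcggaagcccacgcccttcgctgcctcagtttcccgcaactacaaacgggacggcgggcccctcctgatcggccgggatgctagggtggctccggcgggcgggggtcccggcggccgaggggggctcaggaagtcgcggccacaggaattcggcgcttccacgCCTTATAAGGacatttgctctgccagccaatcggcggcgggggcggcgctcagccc
Vcl, chr14:20929148-20929397: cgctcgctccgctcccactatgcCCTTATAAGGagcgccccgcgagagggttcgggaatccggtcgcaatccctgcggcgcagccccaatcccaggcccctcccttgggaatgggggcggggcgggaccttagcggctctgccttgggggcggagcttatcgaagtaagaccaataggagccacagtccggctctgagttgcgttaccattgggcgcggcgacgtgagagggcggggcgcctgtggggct
The boxes of Cnn2 and Vcl are the same 10 letters, CCTTATAAGG, and that of Myl9 is CCTAATAAGG. The TEAD element MCAT (CATTCC on either strand) was found in 9 of the 37 member windows (24.3%), from 8 genes, and in 14.7% of all windows. It overlapped no CArG box. Among these matches, the windows of Flnc overlap and hold the same site, which was counted in each window. The forkhead element GTAAACA, searched on both strands, was found in 0 of the 37 member windows and in 3.65% of all windows. A match describes the letters and not binding, and no match says only that these letters are not in this window.

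The levels of SRF and its coactivators were read beside those of the cytoskeletal genes. Srf was at 34.6 FPKM (29.7 to 39.5) in control cells, 16.8 FPKM (14.1 to 19.5) in starved cells and 48.8 FPKM (41.3 to 56.4) in knockdown cells. It was lower apart in the starved and higher apart in the knockdown library, as were 8 members: Vcl, Actn1, Zyx, Vasp, Tagln, Cnn1, Cnn2 and Myl9. The share of all rows with this pattern was not counted, so whether 8 members is unusual is not known. Other cytoskeletal and adhesion members did not share this pattern. Tagln2, Tns3 and Ilk were lower apart in the starved library alone, Lims1 was higher apart there alone, and Tln2 was higher apart in both. In 13 members the intervals overlapped the control in both, and that share of all rows was not counted either. Whether the Srf level bears on these genes was not tested. The coactivator genes Mkl1 (MRTF-A) and Mkl2 (MRTF-B) were at 36.9, 24.8 and 34.9 FPKM and 9.09, 11.3 and 9.90 FPKM, with intervals overlapping the control in both comparisons. Of 52 further genes of the SRF and actomyosin cytoskeleton, Srf included, 46 reached 1 FPKM in the starved comparison. There 18 (39.1%) were lower with intervals apart and 1 (2.17%) was higher, beside 11% and 12.3% of all rows, and the median log2 fold change was -0.38 against -0.01 over all rows. In the knockdown comparison 13 of 47 (27.7%) were higher with intervals apart and 3 (6.38%) lower, beside 9.03% and 7.22% of all rows, and the median was 0.21 against 0.02.

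The genes of this list with the largest differences included further regulators of actin. Wdr1, which helps cofilin take filaments apart, was at 184 FPKM (157 to 211) in control cells, 63.6 FPKM (53.6 to 73.6) in starved cells and 236 FPKM (196 to 277) in knockdown cells. Fhl3, a LIM-only protein gene, was at 65.1, 23.7 and 73.6 FPKM and was lower apart in the starved library. Fhl2, a LIM-only protein gene known as an SRF target, was at 58.4 FPKM (45.8 to 66.1) in control cells, 34.9 FPKM (27.1 to 41.0) in starved cells and 125 FPKM (97.4 to 145) in knockdown cells. Synpo2, which encodes the actin-bundling protein myopodin, was at 5.79, 6.44 and 14.6 FPKM and was higher apart in the knockdown library. Cfl2, the muscle cofilin, was at 59.2 FPKM (38.6 to 55.3) in control cells, 75.2 FPKM (44.0 to 65.5) in starved cells and 17.0 FPKM (11.0 to 16.6) in knockdown cells, lower apart in the knockdown library. Its deposited means lie above their own upper limits in all 3 libraries, so its level is uncertain.

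Other adhesion proteins stood near the background in the starved library. Of 68 listed, 58 reached 1 FPKM in the starved comparison, where 7 (12.1%) were higher and 7 lower with intervals apart, beside 12.3% and 11% of all rows, and the median was -0.05. In the knockdown comparison 14 of 58 (24.1%) were higher with intervals apart and 3 (5.17%) lower, beside 9.03% and 7.22% of all rows, and the median was 0.17. Lims2, which encodes PINCH2, was at 3.68 FPKM (2.68 to 4.61) in control cells, 17.2 FPKM (13.2 to 20.9) in starved cells and 2.53 FPKM (1.79 to 3.24) in knockdown cells, higher in the starved library as its relative Lims1 was. Nedd9, a docking protein downstream of focal adhesion kinase, was at 14.8 FPKM (12.7 to 17.0) in control cells, 47.1 FPKM (39.9 to 54.4) in starved cells and 22.4 FPKM (18.7 to 26.1) in knockdown cells, higher apart in both libraries. Sdc4, a syndecan that acts beside integrins in adhesions, was at 132 FPKM (102 to 146) in control cells, 55.9 FPKM (41.5 to 61.8) in starved cells and 213 FPKM (160.4 to 239.9) in knockdown cells, with the order of libraries seen for Vcl. The knockdown library was highest in Pdlim3 (16.4, 13.2 and 51.9 FPKM) and Pdlim5 (43.7, 31.3 and 108 FPKM), scaffold genes of the actin and Z-disc systems.

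Genes for integrin ligands showed no common direction. Of 29 listed, 21 reached 1 FPKM. In the starved comparison 4 (19.05%) were higher apart and 6 (28.6%) lower apart, beside 12.3% and 11% of all rows, with a median of -0.08. In the knockdown comparison 6 (28.6%) were higher apart and 6 lower apart, beside 9.03% and 7.22% of all rows, with a median of 0.02. Tnc, which encodes tenascin C, was at 129 FPKM (109 to 148) in control cells, 53.9 FPKM (43.4 to 65.0) in starved cells and 129 FPKM (106 to 152) in knockdown cells, and Spp1, which encodes osteopontin, at 2884, 1540.0 and 2712 FPKM, both lower apart in the starved library. Nov, a matricellular protein gene of the CCN family, was at 8.03 FPKM (6.68 to 9.38) in control cells, 6.23 FPKM (4.79 to 7.68) in starved cells and 49.9 FPKM (41.8 to 58.1) in knockdown cells, the highest knockdown log2 fold change in this list at 2.50. The basement membrane genes differed among themselves: Lama5, a laminin chain, was at 22.5, 42.8 and 15.3 FPKM and Nid2, a nidogen, at 28.3, 33.0 and 67.2 FPKM.

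Of the 11 integrin genes outside the 39, 3 reached 1 FPKM in each comparison and none exceeded 2.31 FPKM. Itga2b, the platelet alphaIIb chain, was at 0.647, 2.31 and 1.19 FPKM and was higher apart in the starved library. Itgb6, an epithelial partner of Itgav, was at 1.23, 0.418 and 1.96 FPKM and was lower apart in the starved library. Itgb4, the epithelial partner of Itga6, was at 1.37, 1.31 and 0.586 FPKM, with overlapping intervals.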

How the data were processed

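RNA was measured in 3 libraries, 1 per group, grouped by sample title. The authors deposited, per the file headers, a mean FPKM and a 95% interval for each gene symbol. Build mm9 and the tools Cufflinks 2.1.1, Cuffdiff, Bowtie2 2.1.0 and TopHat2 2.0.9 stand, with no role stated, in the submitters' processing notes. The annotation, the strand setting, the making of the intervals and any pooling of replicates were not given in the sources used here. FPKM holds no read counts, so depth is unknown and no count model or test was run.

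The authors' FPKM values entered as deposited, with no rescaling. Left out were 364 rows that combine symbols, 333 rows of repeated symbols and 1 row with its limits in the wrong order, leaving 22291 single-gene rows. Fold changes used a pseudocount of 1 FPKM, which understates changes of low genes. A ratio given as times the control has no pseudocount. A comparison took the rows that reached 1 FPKM in either library. Of 160 other pathway genes 158 were found, 3 under older symbols (RefSeq synonyms, GRCm38.p6). From each list and comparison, up to 3 genes at 5 FPKM or more with intervals apart and the largest change were named; some of these are not reported here. Itgb4, Itgb6, Itga2b and the marker genes were named after their values were seen. The members and lists were chosen with earlier results of these data known. A protein comparison planned within the calponin family was not run. Alternatives were tried for the fold threshold, the scaling, the filter and the pseudocount. Python 3.11.15, numpy 2.4.6, pandas 2.3.3 and matplotlib 3.10.9 were used.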

Additional observations from a re-analysis of the deposited data

How the results depend on the processing

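No member with intervals apart changed direction under any alternative. Scaling the starved and control libraries to the same FPKM sum moved every plain starved ratio up by 0.11 on the log2 scale. Log2 fold changes of low genes moved less because of the pseudocount, that of Itgb8 from 0.61 to 0.68. Under this scaling the starved intervals of Itgb1, Ilk, Tagln and Tagln2 overlapped the control, and 9 members in place of 13 were lower apart. It left 1 in place of 3 members 2-fold lower, and the median of the 32 members was -0.31. Centring on the median ratio, and both scalings of the knockdown library, changed no interval call. With a pseudocount of 5 FPKM, 1 member was 2-fold lower in the starved library and 3 in place of 5 were 2-fold higher in the knockdown library. At a threshold of 1.5-fold, 2 members were higher and 12 lower in the starved library, and 11 higher and 2 lower in the knockdown library. Without a filter the starved median over all 39 genes was -0.29. No paired analysis was possible because each group has 1 library. The intervals, with a median near 20% to each side of the value in rows from 5 FPKM upward, limit which differences can be seen. No replicate shows how the libraries would vary.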
